A study of Mus musculus with 21 samples.

Results

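Aminoacyl-tRNA synthetases are the enzymes that join each amino acid to its tRNA. The genes described here are 36 mouse synthetases chosen by symbol, namely 20 that serve the cytosol and 16 that serve mitochondria, whose symbols end in 2. The rule names symbols and uses no measured value, and all 36 were found among the 24421 genes of the deposited table. They were followed across primary B cell precursors of 3 kinds, with 2 RNA-seq libraries of each. All cells came from 53BP1-/- C57BL/6 bone marrow, which lacks the DNA repair factor 53BP1, were kept in IL-7, and were transduced with a MIGR1 retrovirus before collection on days 7 to 9 after transduction. EV cells received the empty vector, BCR-ABL1 cells the p210 form of the fusion kinase of chronic myeloid and some acute lymphoid leukaemias, and C-MYC cells the transcription factor MYC. The deletion of 53BP1, the vector backbone and IL-7 were thus shared by the controls, and no wild-type or untransduced cells were among the RNA libraries. Each culture was a mixed population from bone marrow, not a clone.

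Each synthetase recognises its tRNAs and couples them to the matching amino acid at the cost of ATP, so that the ribosome receives a charged tRNA for each codon. Mammals mostly keep separate nuclear genes for the cytosolic and the mitochondrial enzyme of an amino acid, while Kars and Gars encode both forms of their enzyme from a single gene. In the cytosol, part of the enzymes assemble with the scaffold proteins AIMP1, AIMP2 and the EEF1E1 protein into the multisynthetase complex. MYC is a known activator of genes for protein synthesis, and ATF4, the effector of the amino acid response, is a known activator of many cytosolic synthetase genes.

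The libraries held 20687092 to 24095955 counts, and each of the 36 genes had at least 147 counts in every library and passed the filter on low counts, as did 12786 genes in all. Levels are given as CPM (counts scaled to a common library size), normalised by the trimmed mean of M-values (TMM) of edgeR, and the 2 values of a condition are in the order of replicates 1 and 2. Differences are log2 fold changes ± SE (n = 2 libraries per condition), and a gene was called when its p from edgeR's quasi-likelihood test, adjusted by Benjamini-Hochberg over the 12786 genes, was below 0.05. The labels do not say that replicates came from separate mice or cultures, so the p-values measure the spread between these libraries. Myc, the gene delivered to C-MYC cells, had 3869, 3277, 7239, 8381, 37920 and 27450 counts in the libraries of EV, BCR-ABL1 and C-MYC in turn, so that the libraries labelled C-MYC held the most Myc reads, and its log2 fold change in BCR-ABL1 against EV was 1.12 ± 0.19 (SE, adjusted p = 0.00681). Trp53bp1, the gene of 53BP1, had 363, 723, 464, 516, 342 and 408 counts, and because the deleted part is not given in the sources used here, these reads check nothing about the genotype. All 14 markers of B cell precursors were detected in every library, with summed levels of 6629 to 7480 CPM in EV, 6931 to 7612 CPM in BCR-ABL1 and 3944 to 4635 CPM in C-MYC.

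The promoters are shown for genes that let the synthetases be compared by letters, and each window shown holds at least 1 of the motifs described below. They include the largest cytosolic rise under C-MYC (Farsb), smaller rises (Gars, Iars and Tars) and a gene that was not called in any comparison (Aars). The windows of the next largest cytosolic rises, Eprs, Farsa, Kars and Dars, hold neither motif and are not shown. RefSeq windows of 300 bases, from 250 bases before to 50 bases after the start site on GRCm38.p6, were matched for 26 of the 36 genes. The motifs searched on both strands were the E-box CACGTG, a site that MYC with its partner MAX can bind, and TGATGNAA, a core of the composite element that ATF4 can bind. The E-box was held by 5 of the 26 genes (19.2%: Aars, Ears2, Farsb, Iars and Tars), against 7.15% of 32851 promoters and 9.87% of 12357 promoters of the tested genes. The ATF4-type element was also held by 5 (19.2%), namely Aars, Gars, Iars, Tars and Yars, against 3.97% of all promoters and 2.38% of those of the tested genes. All of these 5 are cytosolic, and it was in 0 of the 14 mitochondrial promoters matched. The capitals below mark both motifs on either strand, so that TTGCATCA and TTTCATCA are the ATF4-type element read from the other strand, and positions count from the start site as +1.
The Aars window lies at chr8:111033592-111033891 on the plus strand, with an E-box from -146 and elements from -112 and +10.
The Farsb window lies at chr1:78488848-78489147 on the minus strand, with an E-box from -39 alone.
The Gars window lies at chr6:55037751-55038050 on the plus strand, with an element from -30 alone.
The Iars window lies at chr13:49681880-49682179 on the plus strand, with an E-box from -69 and an element from +8.
The Tars window lies at chr15:11399609-11399908 on the minus strand, with an element from -15 and an E-box from +20.
Aars: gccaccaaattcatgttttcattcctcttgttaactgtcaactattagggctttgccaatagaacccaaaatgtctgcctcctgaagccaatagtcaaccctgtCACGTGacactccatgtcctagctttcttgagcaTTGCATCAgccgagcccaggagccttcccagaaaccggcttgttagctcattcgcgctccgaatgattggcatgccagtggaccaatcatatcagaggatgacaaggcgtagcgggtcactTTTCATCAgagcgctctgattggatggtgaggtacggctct
Farsb: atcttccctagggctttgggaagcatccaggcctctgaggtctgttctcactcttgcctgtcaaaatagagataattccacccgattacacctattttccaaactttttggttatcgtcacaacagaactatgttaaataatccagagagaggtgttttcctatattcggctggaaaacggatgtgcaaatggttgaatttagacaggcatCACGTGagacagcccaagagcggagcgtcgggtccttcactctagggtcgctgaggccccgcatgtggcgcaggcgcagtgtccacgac
Gars: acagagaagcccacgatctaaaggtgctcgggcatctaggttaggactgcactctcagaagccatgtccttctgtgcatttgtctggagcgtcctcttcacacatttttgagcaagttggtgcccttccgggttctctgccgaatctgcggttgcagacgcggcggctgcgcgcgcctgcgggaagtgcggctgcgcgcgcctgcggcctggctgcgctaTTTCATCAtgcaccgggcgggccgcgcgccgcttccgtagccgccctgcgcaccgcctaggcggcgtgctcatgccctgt
Iars: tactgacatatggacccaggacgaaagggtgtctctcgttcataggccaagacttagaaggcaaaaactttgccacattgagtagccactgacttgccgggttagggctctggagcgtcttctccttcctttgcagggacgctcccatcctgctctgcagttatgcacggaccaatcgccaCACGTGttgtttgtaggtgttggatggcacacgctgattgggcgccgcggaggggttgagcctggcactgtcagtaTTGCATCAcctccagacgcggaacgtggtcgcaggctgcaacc
Tars: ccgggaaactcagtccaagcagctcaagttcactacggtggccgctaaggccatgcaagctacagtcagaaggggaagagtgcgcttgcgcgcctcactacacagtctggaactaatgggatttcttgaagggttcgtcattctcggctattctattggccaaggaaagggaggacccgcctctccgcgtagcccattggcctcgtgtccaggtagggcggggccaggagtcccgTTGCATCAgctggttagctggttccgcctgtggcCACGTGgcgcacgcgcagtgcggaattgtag
The motifs did not overlap each other in the 3 windows that held both, those of Aars, Iars and Tars. Of the 5 genes with the E-box, 4 were called higher in C-MYC against EV, and of the 21 matched genes without it, 16 were. The same counts held for the ATF4-type element. A match of letters is a description of the window and not of binding.

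The first comparison asks how C-MYC cells differed from EV cells. Cytosolic synthetase transcripts were higher in C-MYC: 16 of 20 were called higher and 0 lower, with a median log2 fold change of 0.76 over the 20 genes and of -0.08 over all genes tested. In the same comparison 18.6% of all genes tested were called higher and 24.5% lower. Both C-MYC libraries lay above both EV libraries for 19 of the 20 genes, Wars being the exception, while 31.5% of all genes tested were arranged in that way. The count of 16 stayed between 13 and 17 when any 1 library was left out. Every called synthetase in this comparison kept a positive log2 fold change when any 1 library was left out, between 0.27 and 1.41. EV libraries held more transcripts of other cell types: the 12 myeloid markers summed to 1285 and 1349 CPM in EV and 161 to 410 CPM in the other libraries, 9 T and NK markers to 193 and 262 CPM against 55.1 to 132 CPM, and 8 stromal markers to 121 and 184 CPM against 2.07 to 8.35 CPM. Of 8 erythroid and megakaryocyte markers, which summed to 36.3 and 47.2 CPM in EV and 6.94 to 12.8 CPM elsewhere, those at 0 in all libraries included Hba-a1, Hbb-bs and Hbb-bt, and the stromal markers at 0 in some libraries were Lepr, Dcn, Cxcl12 and Pdgfrb. Of the 14 B cell precursor markers, 12 were called lower in C-MYC against EV, with a median log2 fold change of -0.81. The part of these cells in the differences from EV was not tested. In bulk RNA, fewer cells of a type and less RNA per cell cannot be told apart.

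**Figure D1:**
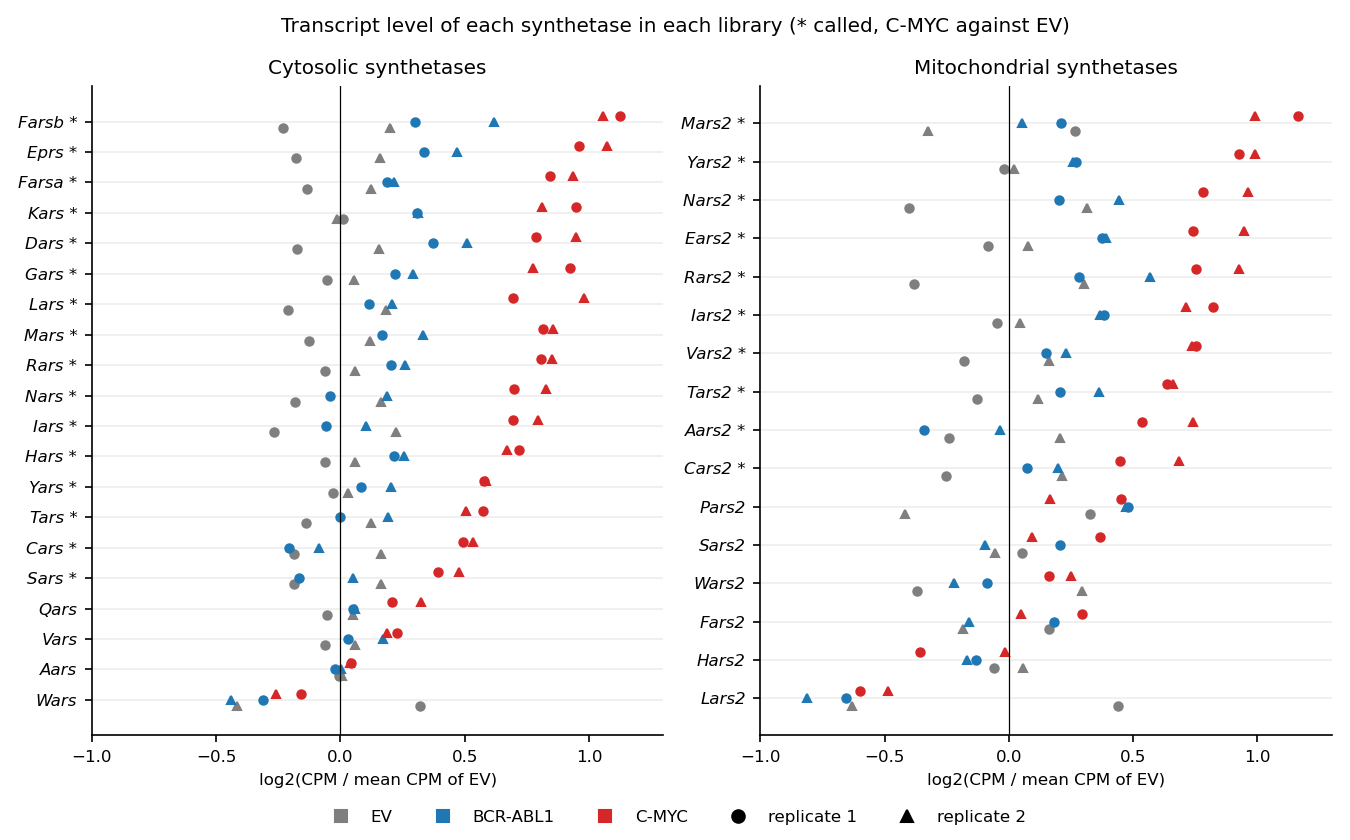
Level of each of the 20 cytosolic and 16 mitochondrial synthetases in each library as log2 of its CPM over the mean CPM of the 2 EV libraries, with circles for replicate 1, triangles for replicate 2 and an asterisk on genes called in C-MYC against EV. Red C-MYC points lie to the right of the grey EV points for 19 cytosolic and 11 mitochondrial genes, and Wars and Lars2 have EV replicate 1 far to the right of the other libraries.

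Of the 8 enzymes of the multisynthetase complex, 7 were called higher in C-MYC against EV, with a median log2 fold change of 0.84. The share called higher over all genes tested was 18.6%. Eprs, the bifunctional enzyme that charges both glutamate and proline tRNAs (chr1:185363044-185428360, GRCm38), stood at 204 and 258 CPM in EV, 292 and 320.0 CPM in BCR-ABL1 and 449 and 485 CPM in C-MYC. The lower C-MYC library was thus above the highest of the other 4, and C-MYC exceeded EV 2.02-fold with a log2 fold change of 1.02 ± 0.13 (SE, adjusted p = 0.00101) in edgeR's quasi-likelihood test. Kars, which charges lysine tRNAs in both compartments, had 233 and 229 CPM in EV, 286 and 287 CPM in BCR-ABL1 and 446 and 405 CPM in C-MYC. Its replicates lay close together, no condition overlapped another, and C-MYC exceeded EV 1.84-fold, at 0.88 ± 0.10 (SE, adjusted p = 0.000543) on the log2 scale (edgeR). Dars, for aspartate, showed the same order of conditions without overlap, at 116 and 146 CPM in EV, 169.7 and 187 CPM in BCR-ABL1 and 226 and 253 CPM in C-MYC, and its log2 fold change in C-MYC against EV was 0.87 ± 0.14 (SE, adjusted p = 0.0021) (edgeR).

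Lars, for leucine, stood at 88.0 and 116 CPM in EV, 110.4 and 118 CPM in BCR-ABL1 and 165 and 201 CPM in C-MYC, where EV and BCR-ABL1 overlapped and C-MYC was apart (0.84 in log2 against EV). Mars, for methionine, rose by 0.83 in log2, from 96.9 and 115 CPM in EV to 186 and 191 CPM in C-MYC, with 119 and 133 CPM in BCR-ABL1. Rars, for arginine, rose by 0.83 in log2, with 127 and 139 CPM in EV, 153 and 159 CPM in BCR-ABL1 and 233 and 240.3 CPM in C-MYC. In both genes the 3 conditions did not overlap. Iars, for isoleucine, rose by 0.75 in log2 at 151 and 212 CPM in EV, 175 and 195 CPM in BCR-ABL1 and 294 and 315 CPM in C-MYC, and here both BCR-ABL1 libraries fell between the EV libraries. Qars, for glutamine, was the member of the complex that was not called. It stood at 124 and 134 CPM in EV, 134 and 135 CPM in BCR-ABL1 and 149 and 162 CPM in C-MYC, so that C-MYC was above EV in both libraries, by 0.27 in log2 (adjusted p = 0.0687 in edgeR's quasi-likelihood test), and it was called with DESeq2, with DESeq2-type size factors and without EV replicate 2.

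The non-enzymatic partners of the complex were called higher in C-MYC against EV as well, 3 of 3, against 18.6% of all genes tested. Eef1e1, which also interacts with the elongation machinery, had 27.7 and 31.2 CPM in EV, 35.1 and 39.5 CPM in BCR-ABL1 and 58.9 and 78.9 CPM in C-MYC, Aimp2, a core scaffold, had 42.1 and 52.0 CPM in EV, 50.2 and 55.1 CPM in BCR-ABL1 and 99.97 and 80.6 CPM in C-MYC, and Aimp1, which binds tRNA, had 71.6 and 74.0 CPM in EV, 79.4 and 83.0 CPM in BCR-ABL1 and 107 and 123 CPM in C-MYC. Their log2 fold changes in C-MYC against EV were 1.23, 0.94 and 0.66 in that order, and in all 3 genes both C-MYC libraries were above the 4 others.

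Of the 12 cytosolic enzymes outside the complex, 9 were called higher, against 18.6% of all genes tested, with a median log2 fold change of 0.56. Farsb and Farsa encode the beta and alpha subunits of the cytosolic phenylalanine enzyme, which works as a heterotetramer. Farsb (chr1:78417975-78488897, GRCm38) had 56.7 and 76.4 CPM in EV, 82.0 and 102 CPM in BCR-ABL1 and 145 and 138 CPM in C-MYC, and C-MYC exceeded EV 2.13-fold, at 1.09 ± 0.17 (SE, adjusted p = 0.00209) in log2 (edgeR). Farsa (chr8:84856989-84869257, GRCm38) had 67.6 and 81.0 CPM in EV, 84.7 and 86.2 CPM in BCR-ABL1 and 133 and 142 CPM in C-MYC, a difference of 0.89 ± 0.12 (SE, adjusted p = 0.00128) in log2 (edgeR). The subunits thus moved the same way, and in both genes no C-MYC library overlapped any other. Gars, the glycine enzyme of both compartments, rose by 0.85 in log2, with 222 and 239 CPM in EV, 268 and 282 CPM in BCR-ABL1 and 438 and 395 CPM in C-MYC. Nars, for asparagine, rose by 0.76, with 169 and 214 CPM in EV, 186 and 219 CPM in BCR-ABL1 and 311 and 339.9 CPM in C-MYC, and EV overlapped BCR-ABL1 but not C-MYC.

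Hars, for histidine, rose by 0.70 in log2 and had 97.6 and 106 CPM in EV, 118 and 122 CPM in BCR-ABL1 and 168 and 163 CPM in C-MYC, without overlap between conditions. Yars, for tyrosine, rose by 0.58 with 99.0 and 103 CPM in EV, 107 and 116 CPM in BCR-ABL1 and 151 and 152 CPM in C-MYC, again without overlap. Tars, for threonine, rose by 0.54 with 129 and 154 CPM in EV, 142 and 162 CPM in BCR-ABL1 and 211 and 201 CPM in C-MYC, and Cars, for cysteine, by 0.51 with 57.2 and 72.9 CPM in EV, 56.3 and 61.3 CPM in BCR-ABL1 and 91.6 and 94.0 CPM in C-MYC. Sars, for serine, showed the smallest called difference among cytosolic enzymes, 0.43 with 111 and 141 CPM in EV, 112 and 130.3 CPM in BCR-ABL1 and 165 and 175 CPM in C-MYC. In Tars, Cars and Sars the EV and BCR-ABL1 libraries overlapped while C-MYC lay above both. The calls of Cars and Sars were lost without either C-MYC library, that of Sars also without EV replicate 1, that of Tars without C-MYC replicate 1 and that of Iars without C-MYC replicate 2.

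The cytosolic genes that were called in no comparison were Aars, Qars, Vars and Wars. Aars, for alanine, whose promoter holds both motifs, was nearly flat at 220.1 and 222 CPM in EV, 218 and 221 CPM in BCR-ABL1 and 227 and 227 CPM in C-MYC. Its log2 fold change in C-MYC against EV was 0.04, with an interval of -0.14 to 0.22 taken as 1.96 SE to either side. Intervals of this kind, here and below, use a normal multiplier and are narrower than edgeR's test implies with so few libraries. Aars shares 1326 exonic bases with Exosc6 on the same strand in the GENCODE annotation, so reads there could not be assigned by position alone, and the log2 fold change of Exosc6 was 0.84. Vars, for valine, had 599 and 652 CPM in EV, 639 and 703 CPM in BCR-ABL1 and 733 and 712 CPM in C-MYC, with C-MYC above EV and above BCR-ABL1 in both libraries but by 0.21 in log2 at most (interval 0.02 to 0.40 against EV). That interval leaves out 0, but the unadjusted p of Vars in edgeR's quasi-likelihood test was 0.0677. Wars, for tryptophan, a gene known to respond to interferon, had 217 and 130.5 CPM in EV, 140.4 and 128 CPM in BCR-ABL1 and 156 and 145 CPM in C-MYC. EV replicate 1 stood apart from all others and the groups overlapped, so that the log2 fold change of -0.21 had an interval of -0.62 to 0.21, and without EV replicate 2 it was called lower.

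Mitochondrial synthetases were also higher in C-MYC than in EV, with a median log2 fold change of 0.64, against -0.08 over all genes tested. Both C-MYC libraries were above both EV libraries in 11 of the 16, as in 31.5% of all genes tested. Fewer of them than of the cytosolic genes were called: 10 of 16 were higher and 0 lower, against 18.6% and 24.5% of all genes tested. The count fell to 6 without C-MYC replicate 1 and to 5 without C-MYC replicate 2. Aars2, Cars2 and Nars2 lost their call in both of these fits and without EV replicate 1, and Rars2 lost it in both. Ears2 lost it without C-MYC replicate 2. Mars2, Yars2, Iars2, Tars2 and Vars2 kept theirs.

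Mars2, the mitochondrial methionine enzyme (chr1:55237177-55248470, GRCm38), had 21.4 and 14.2 CPM in EV, 20.6 and 18.5 CPM in BCR-ABL1 and 39.9 and 35.3 CPM in C-MYC. C-MYC exceeded EV 2.11-fold with a log2 fold change of 1.08 ± 0.21 (SE, adjusted p = 0.00477) in edgeR's quasi-likelihood test, and the other 4 libraries overlapped. Yars2, for tyrosine, had 20.0 and 20.6 CPM in EV, 24.5 and 24.3 CPM in BCR-ABL1 and 38.6 and 40.4 CPM in C-MYC and differed by 0.96 ± 0.13 (SE, adjusted p = 0.00114) in log2 (edgeR), with close replicates in every condition. Iars2, for isoleucine, rose by 0.77 with 99.0 and 106 CPM in EV, 133 and 132 CPM in BCR-ABL1 and 181 and 168 CPM in C-MYC, Tars2, for threonine, by 0.65 with 54.4 and 64.5 CPM in EV, 68.6 and 76.5 CPM in BCR-ABL1 and 92.3 and 94.0 CPM in C-MYC, and Vars2, for valine, by 0.74 with 28.0 and 35.6 CPM in EV, 35.3 and 37.3 CPM in BCR-ABL1 and 53.6 and 53.1 CPM in C-MYC. C-MYC lay above all other libraries in these 3 genes.

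The other called mitochondrial genes were Nars2, Ears2, Rars2, Aars2 and Cars2. Nars2, for asparagine, had 6.92 and 11.4 CPM in EV, 10.5 and 12.4 CPM in BCR-ABL1 and 15.7 and 17.8 CPM in C-MYC and a log2 fold change of 0.87. Ears2, for glutamate, had 8.23 and 9.20 CPM in EV, 11.3 and 11.4 CPM in BCR-ABL1 and 14.6 and 16.8 CPM in C-MYC and rose by 0.85. Rars2, for arginine, had 19.7 and 31.6 CPM in EV, 31.2 and 38.0 CPM in BCR-ABL1 and 43.3 and 48.8 CPM in C-MYC and rose by 0.84. In each of these 3 the C-MYC libraries were the highest of the 6, and EV replicate 1 was the lowest. Aars2, for alanine, rose by 0.64 with 17.4 and 23.7 CPM in EV, 16.2 and 20.0 CPM in BCR-ABL1 and 29.7 and 34.3 CPM in C-MYC, and Cars2, for cysteine, by 0.57 with 13.9 and 19.2 CPM in EV, 17.4 and 18.9 CPM in BCR-ABL1 and 22.6 and 26.5 CPM in C-MYC. Both showed EV and BCR-ABL1 overlapping and C-MYC apart.

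Of the mitochondrial genes that were called in no comparison, Fars2, for phenylalanine, lay between 16.8 and 23.4 CPM over all 6 libraries, and Sars2, for serine, between 28.5 and 39.2 CPM. Wars2, for tryptophan, lay between 6.87 and 10.9 CPM, and Pars2, for proline, between 9.32 and 17.4 CPM. The EV libraries of Wars2 were the lowest and the highest of the 6. When EV replicate 1 was left out, Pars2 was called higher in both oncogene conditions. The intervals of the log2 fold change in C-MYC against EV were -0.21 to 0.56 for Fars2, -0.08 to 0.55 for Sars2, -0.28 to 0.69 for Wars2 and -0.18 to 0.81 for Pars2.

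Lars2, for leucine, stood out by 1 library. It had 313 and 149 CPM in EV, 147 and 132 CPM in BCR-ABL1 and 153 and 165 CPM in C-MYC, with EV replicate 1 (6697 counts) well above the 5 others, which lay together. Its log2 fold changes were -0.73 in BCR-ABL1 and -0.54 in C-MYC against EV, neither was called, and without EV replicate 2 both were. Hars2, for histidine, had 30.9 and 33.4 CPM in EV, 29.3 and 28.5 CPM in BCR-ABL1 and 25.1 and 31.8 CPM in C-MYC and a log2 fold change of -0.18 in C-MYC against EV. Hars and Hars2 are neighbours on chromosome 18 with opposite strands, and their annotated spans overlap by 198 bases. Hars rose in C-MYC while Hars2 was not called. As the strand setting of the counting is not given in the sources used here, reads of the overlap could not be told apart. In all, 7 of the 36 genes share exonic bases with a tested gene on the opposite strand, among them Mars, which shares 68 with Ddit3, a gene that fell in C-MYC against EV (-1.02).

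**Figure D2:**
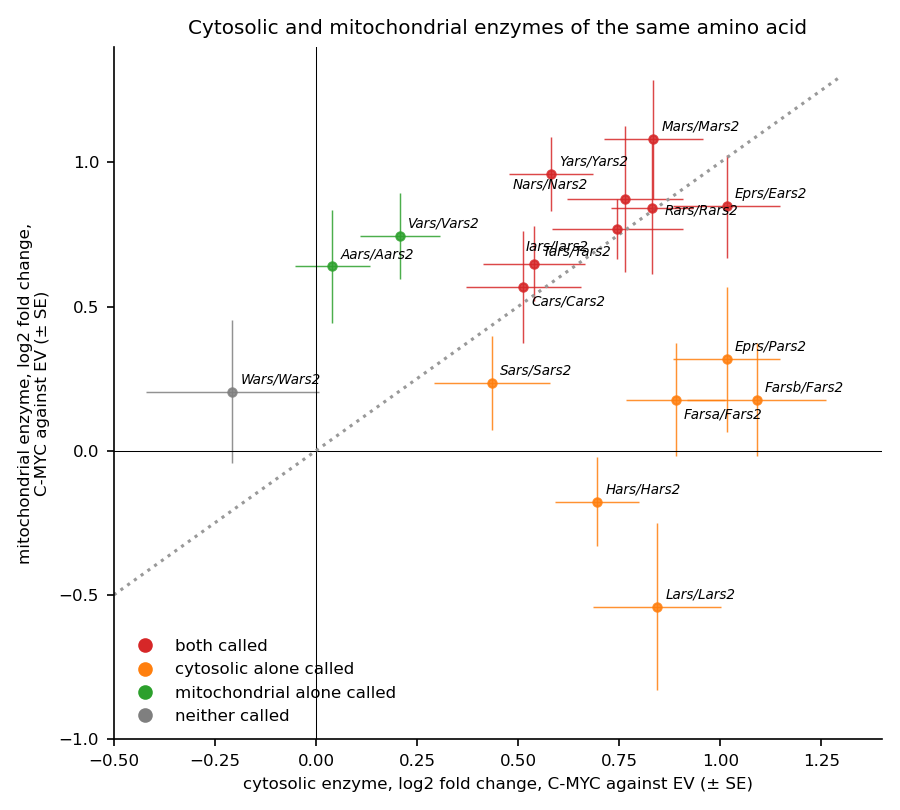
Log2 fold change (± SE) in C-MYC against EV for the cytosolic (horizontal axis) and the mitochondrial enzyme (vertical axis) of the same amino acid, with colours for which of them was called and a dotted line at equal change. Of 17 pairs, 8 had both genes called, 6 the cytosolic one alone, 2 the mitochondrial one alone and 1 neither, and Hars2 and Lars2 lie below 0.

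The cytosolic and the mitochondrial enzyme of an amino acid could be set side by side in 17 pairs, in which Eprs is paired with Ears2 and with Pars2, and Farsa and Farsb each with Fars2. Both genes were called in C-MYC against EV in 8 pairs, the cytosolic gene alone in 6, the mitochondrial gene alone in 2 and neither in 1. In the pairs of leucine and histidine, the cytosolic genes Lars and Hars rose by 0.84 and 0.70 while Lars2 had -0.54 and Hars2 -0.18, neither of them called. For phenylalanine, Farsa and Farsb rose by 0.89 and 1.09 and the single-chain mitochondrial enzyme Fars2 had 0.18. The reverse pattern was seen for alanine and valine, where Aars2 and Vars2 were called and Aars and Vars were not. Whether the members of a pair differed in their change was not tested. Against BCR-ABL1, 3 pairs had both genes called, 11 the cytosolic one alone, 2 the mitochondrial one alone and 1 neither.

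Synthetases fall into class I and class II by the fold of their catalytic domain. In C-MYC against EV, 6 of 9 class I and 9 of 10 class II cytosolic enzymes were called higher, with median log2 fold changes of 0.58 and 0.81, and Eprs, which holds a domain of each class, was left out of this count. Among mitochondrial enzymes the shares lay the other way, with 7 of 9 in class I and 3 of 7 in class II, and medians of 0.77 and 0.32. Of the cytosolic enzymes usually listed as ATF4 targets 10 of 12 were called higher, with a median of 0.66, against 6 of 8 and 0.85 for the other cytosolic enzymes. In C-MYC against BCR-ABL1 these were 10 of 12 with 0.59 and 5 of 8 with 0.52. Over all genes tested, 18.6% were called higher in C-MYC against EV and 11.5% in C-MYC against BCR-ABL1. Differences between these groups of enzymes were not tested.

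The second comparison sets the 2 oncogenes against each other, in the model fitted to all 6 libraries. In C-MYC against BCR-ABL1, 15 of 20 cytosolic genes were called higher and 0 lower, and 5 of 16 mitochondrial genes were called higher and 0 lower, while 11.5% of all genes tested were called higher and 11.9% lower. Median log2 fold changes were 0.58, 0.40 and -3.3e-05 for cytosolic, mitochondrial and all tested genes. Both C-MYC libraries were above both BCR-ABL1 libraries in 20 of 20 cytosolic and 12 of 16 mitochondrial genes, as in 34.5% of all genes tested, and Pars2 had both C-MYC libraries below both BCR-ABL1 libraries. These calls rested on all 4 libraries. Without BCR-ABL1 replicate 1, 0 of 36 synthetases were called at all, without BCR-ABL1 replicate 2 there were 2, without C-MYC replicate 1 there were 6, and without C-MYC replicate 2 there were 2, while calls over all genes fell from 1468 to between 176 and 590 higher. In these same fits the log2 fold changes of the 20 called synthetases stayed between 0.34 and 1.03. Cell type markers moved in this comparison too. Of the 14 B cell precursor markers 11 were called lower in C-MYC, with a median log2 fold change of -0.73. Of the 12 myeloid markers 4 were called higher, with a median of 1.04 and sums of 247 and 410 CPM in C-MYC against 161 and 183 CPM in BCR-ABL1. Of the tested markers of T and NK cells 1 of 9 was called lower, as were 3 of 6 stromal ones, and 0 of 2 erythroid and megakaryocyte markers were called, both having an unadjusted p below 0.05 in edgeR's test. The part of these markers' cells in the calls of synthetases was not tested.

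The largest called difference between the oncogenes was that of Mars2, at 0.95 ± 0.21 (SE, adjusted p = 0.0157) in log2, followed by Aars2 at 0.82 ± 0.20 (SE, adjusted p = 0.0223), both by edgeR's quasi-likelihood test. Iars at 0.72 ± 0.16 (SE, adjusted p = 0.0179), Yars2 at 0.70 ± 0.13 (SE, adjusted p = 0.00842) and Farsa at 0.69 ± 0.12 (SE, adjusted p = 0.00758) came next (edgeR). Aars2 and Iars have in common that the BCR-ABL1 libraries were not above EV, with log2 fold changes of -0.18 and 0.03 in BCR-ABL1 against EV. Nars (0.69), Lars (0.68), Cars (0.66), Farsb (0.62), Eprs (0.61), Rars (0.60), Gars (0.60), Mars (0.58), Kars (0.57), Sars (0.49), Hars (0.46), Yars (0.44) and Tars (0.44) were the other cytosolic genes called. Vars2 (0.56) and Iars2 (0.39) were the other mitochondrial ones. Dars, called against EV, was not called against BCR-ABL1, at 0.43 in log2 (adjusted p = 0.0578 in edgeR's quasi-likelihood test). Dars was called with DESeq2, with DESeq2-type size factors and without the filter on low counts, and Tars2 with DESeq2. When the model held the 4 libraries of these conditions alone, Dars and 5 mitochondrial genes (Cars2, Ears2, Nars2, Rars2 and Tars2) were called, which brought the mitochondrial count from 5 to 10. This comparison shares its C-MYC libraries with the first one.

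The third comparison asks how BCR-ABL1 cells differed from EV cells. With edgeR's quasi-likelihood test, 0 of 20 cytosolic synthetases were called in either direction, and 5 had an unadjusted p below 0.05, all higher. DESeq2 called 3 of them higher (Dars, Eprs and Kars), edgeR without a filter on low counts called Dars, Eprs and Farsb, and limma on log2 FPKM called 0. With the replicate number as a block, edgeR called Dars, Eprs, Farsb and Kars higher, though no label ties that number to a shared day or mouse. Without EV replicate 2, Dars, Eprs and Farsb were called higher and Wars lower. Of the 16 mitochondrial genes 1 was called higher, Iars2, and 0 lower, and without EV replicate 2 Nars2 and Rars2 were called higher as well and Lars2 lower. Over all genes tested, 5.08% were called higher and 12% lower, so that 1 of 36 synthetases was not above the background of higher calls. The median log2 fold changes were 0.15 for cytosolic and 0.16 for mitochondrial genes, and 0.001 over all genes tested. Both BCR-ABL1 libraries lay above both EV libraries in 10 of 20 cytosolic and 5 of 16 mitochondrial genes, as in 29.3% of all genes tested, and below them in Hars2 and Lars2.

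Iars2 (chr1:185284726-185329396, GRCm38) had 2117, 2528, 2810, 3174, 3937 and 3732 counts in EV, BCR-ABL1 and C-MYC in turn, which with the CPM given above separates all 3 conditions. BCR-ABL1 exceeded EV 1.29-fold, with a log2 fold change of 0.37 ± 0.10 (SE, adjusted p = 0.0445) in edgeR's quasi-likelihood test. The call was lost without EV replicate 1 or either BCR-ABL1 library, while the log2 fold change stayed between 0.33 and 0.42. Iars2 shares 2034 exonic bases with Rab3gap2 on the opposite strand, and Rab3gap2 had a log2 fold change of 0.19 in the same comparison and was not called. The mitochondrial genes Pars2 (0.48), Rars2 (0.43) and Ears2 (0.38) had larger positive log2 fold changes than Iars2 but were not called. Among the cytosolic genes, none of them called, the largest were Farsb (0.47), Dars (0.44), Eprs (0.41) and Kars (0.31), all but Kars above Iars2. Their adjusted p-values in edgeR's quasi-likelihood test were 0.104, 0.0637, 0.0741 and 0.0661. In these 4 genes the BCR-ABL1 libraries were above the EV libraries without overlap.

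Over the 3 conditions, the means ran in the order EV, BCR-ABL1, C-MYC from low to high in 16 of 20 cytosolic genes (80%) and in 11 of 16 mitochondrial genes (68.8%), as they did in 26.8% of all genes tested. Summed over the 20 cytosolic genes, the level was 3186 and 3542 CPM in EV, 3592 and 3867 CPM in BCR-ABL1 and 5078 and 5138 CPM in C-MYC. This came to 1.52 times the EV mean in C-MYC and 1.11 times in BCR-ABL1. The 16 mitochondrial genes summed to 708 and 585 CPM in EV, 627 and 619.9 CPM in BCR-ABL1 and 798.5 and 808 CPM in C-MYC. Lars2 alone made EV replicate 1 the higher of the EV libraries, since the other 15 genes summed to 395 and 435 CPM in EV, 481 and 488 CPM in BCR-ABL1 and 646 and 643 CPM in C-MYC. The ratio of C-MYC to EV was thus 1.24 with Lars2 and 1.55 without it.

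**Figure D3:**
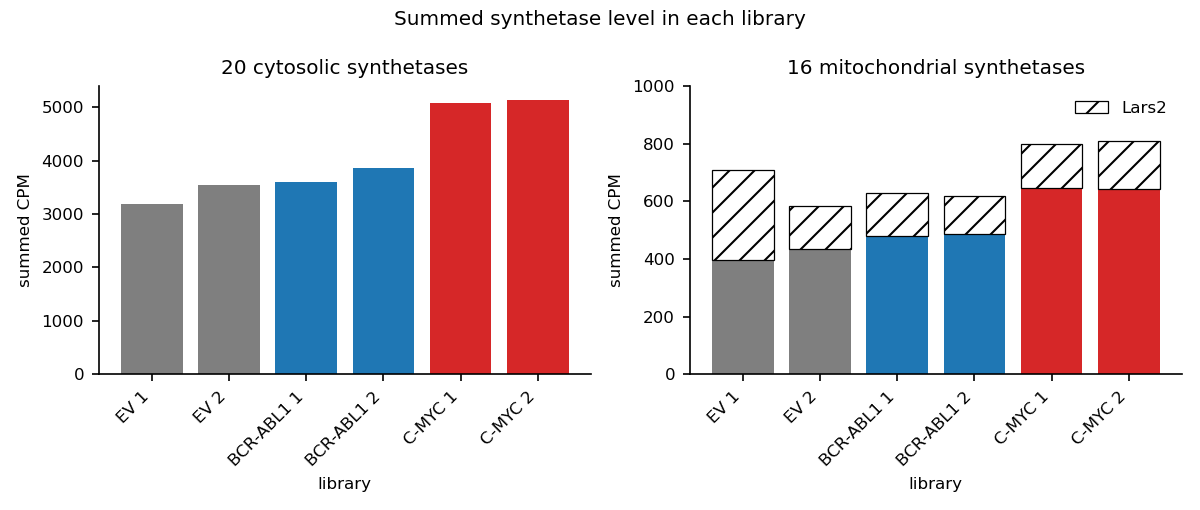
Summed CPM of the 20 cytosolic (left) and the 16 mitochondrial synthetases (right) in each library, with the share of Lars2 hatched and colours for EV (grey), BCR-ABL1 (blue) and C-MYC (red). Both C-MYC bars are the highest in each panel, and EV replicate 1 exceeds EV replicate 2 on the right through Lars2.

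Levels between genes were compared per length, in deposited FPKM values, which scale fragments by transcript length and library depth. Transcripts of cytosolic enzymes were more abundant than those of mitochondrial ones, with medians over genes of 36.1 and 8.16 FPKM in EV, 41.1 and 8.04 FPKM in BCR-ABL1, and 58.4 and 11.35 FPKM in C-MYC. On counts per kilobase of annotated exon the ratios of these medians were 5.465, 5.735 and 7.32 for EV, BCR-ABL1 and C-MYC, and on FPKM they were 4.42, 5.11 and 5.14. Vars ranked first on both scales, with a mean of 101.5 FPKM over the 6 libraries and 93.2 and 103 FPKM in EV. Kars and Dars followed in FPKM with overall means of 96.6 and 95.7 FPKM and overlapping libraries, though Dars ranked 9 on counts per kilobase. In C-MYC, Kars (132 and 125 FPKM), Dars (112 and 131 FPKM) and Gars (119.5 and 112 FPKM) were all above Vars (105 and 106 FPKM). Ears2 was the lowest in FPKM, with 1.24 and 1.37 FPKM in EV and 1.96 and 2.37 FPKM in C-MYC. Lars2 depended on the scale most, with rank 5 of 36 in FPKM and rank 20 in counts per kilobase. Its annotated exons span 11089 bases, while Mars2, with 11294, ranked 32 and 34. Why the scales differed was not tested.

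**Figure D4:**
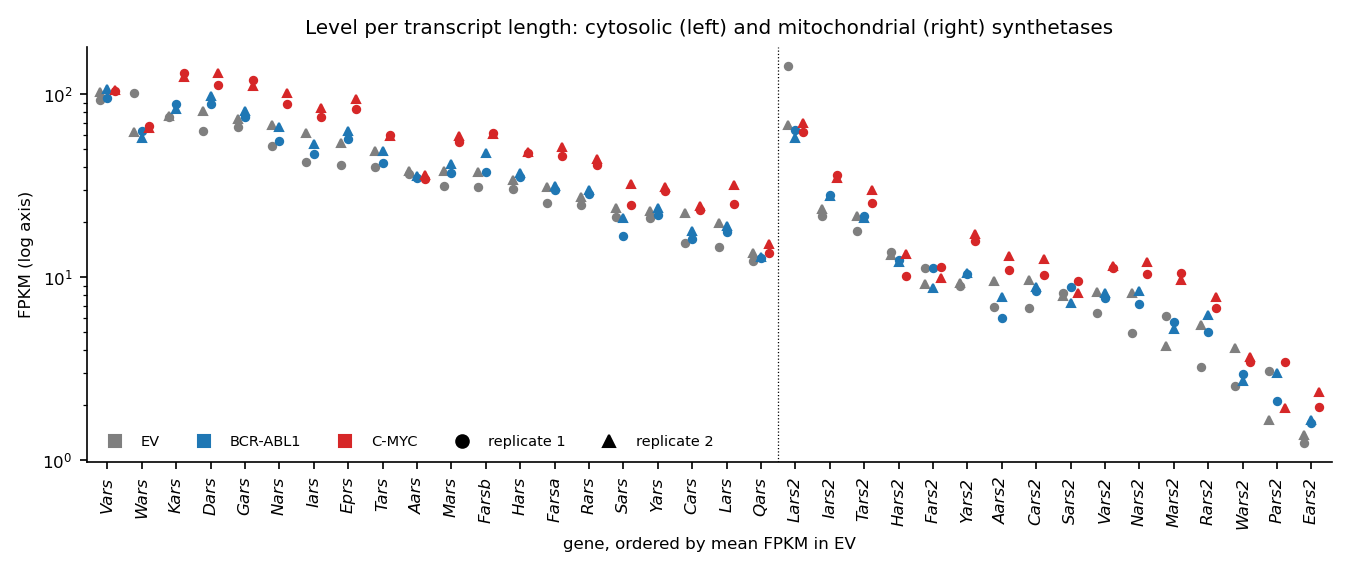
FPKM (log axis) of each synthetase in each library, cytosolic genes left and mitochondrial genes right of the dotted line, each ordered by mean FPKM in EV, with colours for condition and symbols for replicate. Vars and Aars have all 6 points close together, whereas the red C-MYC points are uppermost for most other cytosolic genes, and Lars2 in EV replicate 1 is the highest point of all.

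The steps before and after charging were followed through lists of genes with roles next to the synthetases. Of 21 genes for processing and export of tRNA, 15 were called higher and 0 lower in C-MYC against EV, with a median log2 fold change of 0.77, where 18.6% of all genes tested were called higher and 24.5% lower. Xpot, which carries tRNA out of the nucleus, had 92.9 and 143 CPM in EV, 148 and 176 CPM in BCR-ABL1 and 283 and 295 CPM in C-MYC and a log2 fold change of 1.29 ± 0.20 (SE, adjusted p = 0.00189) (edgeR), with C-MYC above all other libraries. Rpp40 and Rpp25, subunits of RNase P and MRP, had the largest differences of the list, at 1.79 and 1.66, and Rpp25 was also called in BCR-ABL1 against EV (1.56). The 22 genes of RNA polymerase III, which transcribes tRNA genes, and its factors were less uniform, with 8 called higher and 2 lower and a median of 0.20. The lower calls were Maf1 (-0.46) and Brf1 (-0.32, adjusted p = 0.0489 in edgeR's quasi-likelihood test), and they were not above the background of lower calls. The genes of this list with the largest called differences were Polr3g (1.55), a polymerase subunit whose alternative is Polr3gl, and Gtf3a (0.92).

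After charging, elongation factor 1 brings the tRNA to the ribosome, and its 4 genes were all called higher in C-MYC against EV: Eef1g (1.09), Eef1d (1.00), Eef1b2 (0.63) and Eef1a1 (0.39). Of 5 genes listed under editing and deacylation of tRNAs, 4 were called higher, among them Dtd1 (1.04), Aarsd1 (0.90) and Dtd2 (0.81). Mammalian mitochondria have no glutaminyl-tRNA synthetase and make charged glutamine tRNA with an amidotransferase, and of 4 genes for this enzyme and for the formylase of the initiator tRNA, Gatb (0.99) and Gatc (0.49) were called. Among 33 tested initiation factors of translation, 27 were called higher, with a median of 0.70, and Eif2b3 (1.72), Eif1a (1.19) and Eif3b (1.04) had the largest differences. In BCR-ABL1 against EV, 8 of these 33 were called higher, and 1 elongation factor gene, Eef1g (0.60). Over all genes tested, 5.08% were called higher and 12% lower in that comparison, and 18.6% and 24.5% in C-MYC against EV.

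Genes of the amino acid response held calls in both directions. Of 22 genes made of Atf4 and its usual targets outside the synthetases, 10 were called higher and 4 lower in C-MYC against EV, with a median log2 fold change of -0.03. Over all genes tested 18.6% were called higher and 24.5% lower, so that the lower calls among these 22 genes, and among the transporters that follow, were not above the background. Asns, the asparagine synthetase, rose by 2.05 and Stc2, a secreted glycoprotein, by 2.93, while Vldlr, a lipoprotein receptor, had -3.85 and Slc7a11, the cystine transporter, -2.63. Reads were few for Stc2 (14 and 16 counts in EV, 143 and 80 in C-MYC) and for Vldlr (18 and 15 in EV, 2 and 0 in C-MYC). Slc7a11 had 283 and 56 counts in EV and 17 and 38 in C-MYC, so EV replicate 1 lay well above the other libraries. Atf4 itself, which is largely controlled at translation, had 5937, 9127, 6018, 6263, 7778 and 6161 counts and was called in no comparison (-0.06 in C-MYC against EV). Among 13 tested amino acid transporters, 5 were called higher and 2 lower, with Slc7a5, which imports leucine and other large neutral amino acids, at 1.21, Slc38a9, the lysosomal arginine sensor, at -1.52 and Slc43a2, a neutral amino acid transporter, at -1.22. In C-MYC against BCR-ABL1, where the background was 11.5% higher and 11.9% lower, 10 of the 22 genes of the amino acid response and 6 of the 13 transporters were called higher, and 0 and 2 lower.

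**Figure D5:**
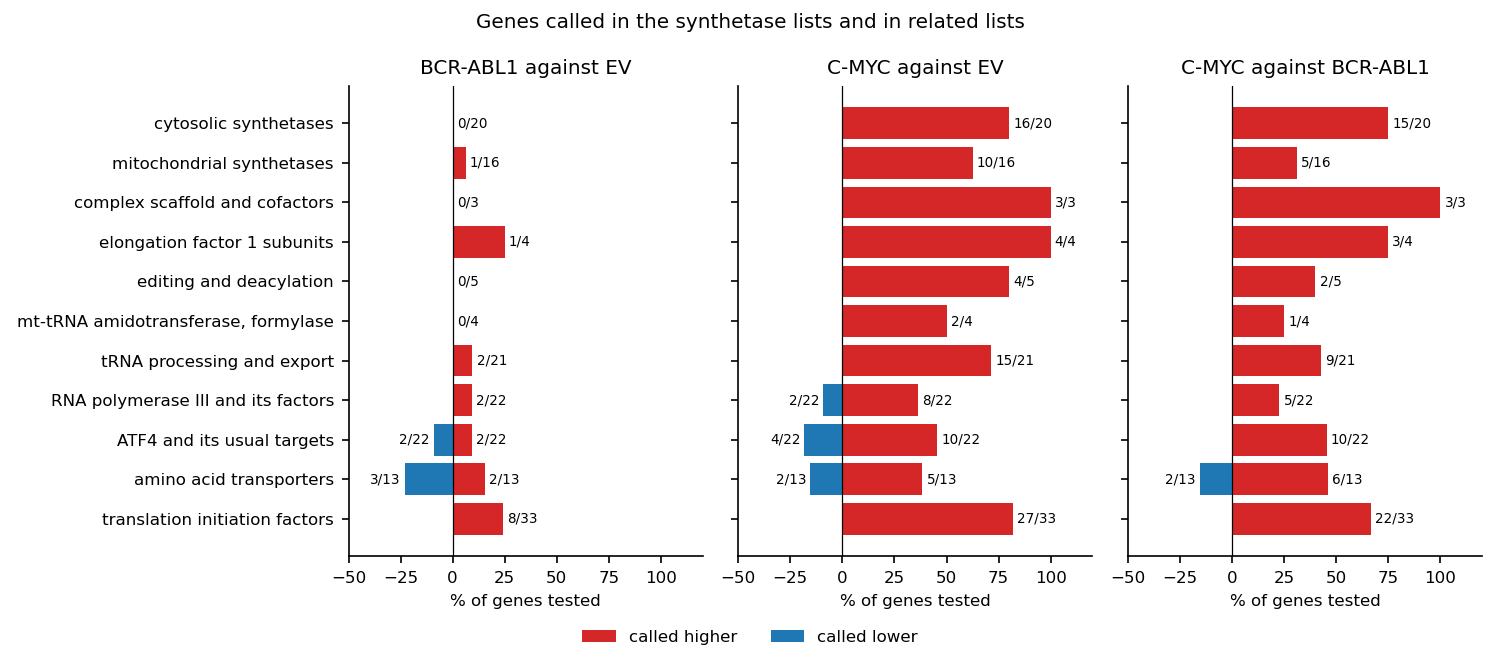
Share of the tested genes of each list called higher (red, to the right) or lower (blue, to the left) in the 3 comparisons, with the number called over the number tested beside each bar. In C-MYC against EV the bars of cytosolic synthetases (16 of 20), initiation factors (27 of 33) and tRNA processing (15 of 21) are long and without a lower part, while RNA polymerase III, ATF4 targets and transporters have called genes on both sides.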

How the data were processed

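RNA-seq of 6 libraries was used, 2 each of EV, BCR-ABL1 and C-MYC, grouped by the sample titles. The 15 ChIP-seq samples were not analysed here. The authors aligned reads of poly(A) RNA with STAR 2.5.0 to the GRCm38 (mm10) genome and UCSC known genes, and deposited whole-number counts per gene symbol without normalization. The deposited FPKM values were calculated by the authors with StringTie 1.3.0. The counting program and its strand setting are not given in the sources used here, and neither table held columns of other samples. The authors tested differential expression with DESeq2, and those results were not used.

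With edgeR 4.0.16 (R 4.3.3), the counts of all 6 libraries were fitted in 1 model by condition without a covariate, after filterByExpr (12786 of 24421 genes) and TMM scaling, with the quasi-likelihood test and Benjamini-Hochberg adjustment over all genes tested at 0.05. The SE of a log2 fold change is its size divided by the square root of F. edgeR's common coefficient of biological variation was 0.151. The scripts were tested on simulated data. Alternatives were DESeq2 1.42.0, other scaling, no filter on low counts, the 4 libraries of a comparison alone, the replicate number as a block, each library left out, limma 3.58.1 on log2(FPKM + 1) and log2(FPKM + 0.1), and a threshold of 0.01. Gene positions and exon overlaps are from GENCODE M21 on GRCm38, 1-based, and promoters from RefSeq. There 10 of the 36 genes had no matched window, among them Hars, Lars, Nars and Hars2, as windows on chromosome 18 were left out. The libraries held 20687092 to 24095955 counts each, with 2 libraries per condition. Whether depth or the number of libraries limits the precision more was not tested.

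Every synthetase is named. In each comparison the 5 called synthetases with the largest log2 fold change were given with SE and adjusted p, and from each related list the 3 called genes with the largest change were named where they were described, with Atf4, Xpot, Aimp1, Aimp2, Eef1e1, Myc and Trp53bp1. Other genes were named for the bases they share with a synthetase, and Maf1 and Brf1 as the lower calls of their list. The members and lists were chosen with earlier results of these data known.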

Additional observations from a re-analysis of the deposited data

How the results depend on the processing

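Each result was recomputed under the alternatives, 1 at a time. For the 47 calls of single synthetases, 564 values were obtained, of which 430 stayed past the threshold, 134 did not, and 0 changed direction. The cytosolic count in C-MYC against EV (16 higher) lay between 13 and 17 under every alternative. In BCR-ABL1 against EV, the cytosolic count of 0 higher became 3 with DESeq2 and 3 without the filter. The mitochondrial count of 1 higher became 0 with total counts, with the 4 libraries alone, with limma at either pseudocount and at an adjusted p under 0.01, and without the filter 1 gene (Lars2) was lower. In C-MYC against EV, the mitochondrial count of 10 became 6 with limma on log2(FPKM + 1) and 6 at 0.01. In C-MYC against BCR-ABL1, limma called 7 (pseudocount 1) and 9 (0.1) of the 15 cytosolic and 2 and 3 mitochondrial genes, against 5, the threshold of 0.01 left 4 and 1, and the 4 libraries alone gave 10 mitochondrial genes. Causes were not tested, other than that a stricter threshold calls fewer genes.

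With each library left out in turn, counts called higher ranged from 0 to 3 (cytosolic) and 0 to 3 (mitochondrial) in BCR-ABL1 against EV, from 13 to 17 and 5 to 10 in C-MYC against EV, and from 0 to 5 and 0 to 1 in C-MYC against BCR-ABL1. Counts called lower ranged from 0 to 1 in both compartments against EV and were 0 in C-MYC against BCR-ABL1. The lone sample left in a condition was assumed to vary like the others. Same-numbered libraries correlated in their deviations from the condition means (r across genes of 0.273 for EV with BCR-ABL1, 0.236 for EV with C-MYC and 0.204 for BCR-ABL1 with C-MYC), but with 2 pairs and no label of a shared day they share only a number. With the replicate number as a block, 4 cytosolic genes were called higher in BCR-ABL1 against EV (Dars, Eprs, Farsb and Kars), against 0, the other block counts stayed within 1.5 times, and the calls gained were Qars in C-MYC against EV and Dars, Nars2 and Tars2 in C-MYC against BCR-ABL1.

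Scaling by total counts moved the median log2 fold change of all genes in C-MYC against EV from -0.08 to -0.19 and the share of higher among all calls from 43.2% to 32.2%, and in BCR-ABL1 against EV that share from 29.8% to 19.4%. In C-MYC against EV 14 cytosolic and 7 mitochondrial genes were still called higher. Of the 732 values of uncalled synthetases, 45 differed in sign and 39 were called. Summed in FPKM, the mitochondrial log2 ratio was 0.08 in C-MYC against EV and 0.32 in C-MYC against BCR-ABL1, compared with 0.31 and 0.37 in CPM.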

Other observations

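In C-MYC against BCR-ABL1, 11.5% of all genes tested were called higher and 11.9% lower, and the partners of the synthetases were called as follows. The 3 genes of the complex scaffold were all higher (median log2 fold change 0.78), and 3 of 4 elongation factor 1 genes were higher. Of the genes for tRNA processing and export, 9 of 21 were higher, among them Trnt1 (0.83), which adds the CCA end of tRNAs. RNA polymerase III and its factors had 5 of 22 higher and 0 lower, and initiation factors of translation 22 of 33. Editing and deacylation genes had 2 of 5 higher (Aarsd1 and Dtd1), and the mitochondrial amidotransferase and formylase 1 of 4 (Gatc).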
